A study of Xenopus tropicalis with 84 samples.

Results

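The CCN family comprises the genes of a small group of secreted matricellular proteins, and 5 of them, *cyr61*, *ctgf*, *nov*, *wisp1* and *wisp3*, were followed here through early development of *Xenopus tropicalis*. Members were the rows of the expression table whose gene symbol equals one of these names, and all 5 were found among 34192 genes. The family was selected on the late rise of *wisp3* in embryos injected with a *nup107* morpholino oligonucleotide (MO), so the MO against control values of *wisp3* are given as a description and without a test. Of the 5 members, 2 (*wisp3* and *cyr61*) passed the filter on low values, at least 6 successive times above 0.4 TPM (a length-normalised share of all transcripts) in either condition, against 15011 of all 34192 genes. The other 3 are given by their values.

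CCN proteins are built from modules that resemble IGF-binding proteins, von Willebrand factor type C repeats, thrombospondin type 1 repeats and a cystine knot. They bind integrins, heparan sulfate proteoglycans, LRP receptors and growth factors, and act between cells and the extracellular matrix more than as classical ligands. In the current nomenclature *cyr61* is *ccn1*, *ctgf* is *ccn2*, *nov* is *ccn3*, *wisp1* is *ccn4* and *wisp3* is *ccn6*. In mammalian cells *CYR61* and *CTGF* are immediate early genes and standard targets of the Hippo pathway effectors YAP and TAZ with TEAD factors. The WISP name stands for Wnt1-inducible signalling pathway protein, but the name does not show that each gene is induced, and induction of *wisp3* was not tested. *WISP3* in humans is mutated in progressive pseudorheumatoid dysplasia, a cartilage disease. In *Xenopus* embryos, Cyr61 has been tied to gastrulation movements and Wnt signalling.

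Embryos came from *X. tropicalis* of the Nigerian N strain. One group was injected at the one-cell stage with 10 ng of an MO against the translation start of *nup107*, which encodes a scaffold nucleoporin of the nuclear pore. The other group was left uninjected (UIC), so that injection itself is part of every difference. Each library was made from 10 pooled embryos and is labelled as polyA+ RNA. The values given for polyA+ and ribozero libraries are identical, so the fraction rests on the labels. There was 1 library for each condition at each of 21 times between 2 and 12 hours post fertilization (hpf), 0.5 h apart. This gives 42 libraries and no replicate check at a single time point. Neighbouring times are not independent. The p-values rest on the spread of a gene between time points within windows, pooled over all windows and moderated by that of other genes. A gene near 0 in some windows varies little there, which lowers its pooled spread. The 3 windows used have 7 time points each and are called early (2 to 5 hpf), middle (5.5 to 8.5 hpf) and late (9 to 12 hpf).

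Sequencing depth is unknown, because TPM hold no read numbers. ERCC spike-ins made up 4.46% to 6.35% of TPM in UIC and 4.60% to 5.98% in MO libraries, and 13125 to 15520 genes exceeded 0.4 TPM. Markers of all 3 germ layers were present: at 9 to 12 hpf 5 of 5 mesoderm, 4 of 4 endoderm and 5 of 5 ectoderm markers averaged over 1 TPM in both conditions. Their summed levels at 9 to 12 hpf spanned 415 to 1553 TPM in UIC and 422 to 1427 TPM in MO for mesoderm, up to 563 and 248 to 555 TPM for endoderm, and 749 to 879.5 and 739.8 to 959.5 TPM for ectoderm. The *nup107* mRNA averaged 40.7 ± 13.4 TPM (SD, n = 7 time points) in UIC and 95.2 ± 25.9 TPM in MO at 9 to 12 hpf. A start-site MO blocks translation, so this level does not check the depletion. The UIC and MO libraries at 9 hpf were the least alike of the 21 pairs (Spearman's rho 0.98 across genes, median of all pairs 0.989). The late differences of *wisp3*, *cyr61*, *lats1*, *ccdc80* and *igf2* are therefore also given without them. In whole embryos, fewer expressing cells and less RNA per cell cannot be told apart. The paper states that polyadenylation changes in the early embryo shift the polyA+ levels of maternal transcripts. A change in level given here can therefore include a change in polyA tail length, which was not tested.

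To see when each member was expressed, levels were followed over time in UIC first. The 2 members that passed the filter had opposite courses. The mRNA of *cyr61* was present from the first time point and was at a low level by 9 hpf. In contrast, *wisp3* was near 0 in the cleavage embryo and appeared during the second part of the time course. *wisp3* ranged from 0 to 0.19 TPM in UIC at 2 to 5 hpf, with a median of 0.05 TPM, and 2 of the 7 libraries were listed at 0. It stood at 0.37 TPM at 6 hpf, 1.49 TPM at 6.5 hpf and 3.58 TPM at 7 hpf. From 7.26 TPM at 9 hpf it rose to 18.1 TPM at 9.5 hpf and 29.9 TPM at 12 hpf, the highest UIC value. These UIC levels put *wisp3* among the genes switched on after the start of zygotic transcription, with a late-window mean of 20.9 ± 7.26 TPM (SD, n = 7 time points), rank 5665 of 15011 tested genes.

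In MO embryos *wisp3* appeared at the same sampled time and then climbed faster. The level was 0 to 0.27 TPM at 2 to 5 hpf, with a median of 0.05 TPM, and the values of the 2 conditions overlapped throughout this window. At 6.5 hpf it was 2.17 TPM, and both conditions first exceeded 1 TPM at this time. The MO level was 8.08 TPM at 7.5 hpf against 3.6 TPM in UIC, 13.2 TPM against 6.73 TPM at 8.5 hpf, and 19.1 TPM against 7.26 TPM at 9 hpf. From 10 hpf on, MO values of 38.2, 40.1, 46.8, 36.4 and 53.3 TPM stood beside UIC values of 20.9, 24.8, 19.6, 25.8 and 29.9 TPM. All 5 of these MO values lay above the highest UIC value of the whole series. MO embryos first exceeded 5 TPM at 7.5 hpf and UIC embryos at 8 hpf. A level of 10 TPM was first exceeded at 8 hpf in MO and 9.5 hpf in UIC, and a level of 20 TPM at 9.5 hpf and 10 hpf.

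**Figure D1:**
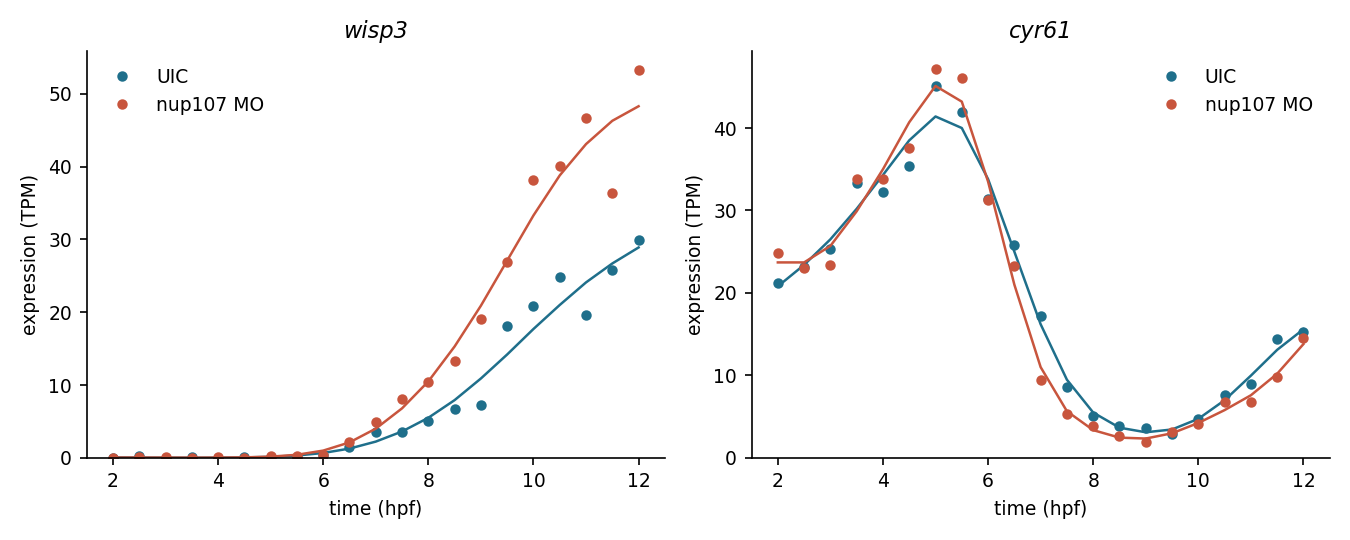
Expression of *wisp3* and *cyr61* in TPM against time in hpf in UIC (blue) and *nup107* MO (red) libraries, with 1 point per library and the fitted Gaussian process curve of each condition. *wisp3* reaches 29.9 TPM in UIC and 53.3 TPM in MO at 12 hpf, while *cyr61* peaks at 5 hpf (45.1 and 47.1 TPM), falls to a trough near 9 hpf and rises again.

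The paired difference, log2((MO + 1)/(UIC + 1)) in TPM, understates changes at low levels and was averaged over each window. For *wisp3* the early mean was 0.02 ± 0.14 (SD, n = 7 time points), the middle mean 0.54 ± 0.38 and the late mean 0.83 ± 0.31. MO was the higher library at 3 of 7 time points in the first window and at 7 of 7 in each of the others. The late mean of MO embryos was 37.2 ± 11.5 TPM, 1.78 times that of UIC. Without 9 hpf the means were 40.3 TPM and 23.2 TPM, and the mean difference was 0.76 ± 0.26 (SD, n = 6 time points), with MO higher at 6 of 6. The ratio of MO to UIC was not steady across the late window. It was 2.63 at 9 hpf, 1.49 at 9.5 hpf, 2.38 at 11 hpf and 1.41 at 11.5 hpf.

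The size of the late *wisp3* difference can be read beside other genes that come on late. In UIC, 558 tested genes averaged under 1 TPM at 2 to 5 hpf and at least 10 TPM at 9 to 12 hpf, *wisp3* among them. Their median late difference was 0.07, with the 5th and 95th percentiles at -0.32 and 0.40, and 374 of the 558 had a mean difference above 0. MO was the higher library at all 7 late time points for 46 of the 558, *wisp3* among them. Only *LOC100485898* (1.05 ± 0.93), *akap12* (1.03 ± 1.07) and *elavl3* (1.00 ± 0.93) had a mean late difference above that of *wisp3* (SD, n = 7 time points). These 3 genes were named after their values were seen. *akap12* encodes a kinase-anchoring scaffold and *elavl3* a neuronal RNA-binding protein. Among all 15011 tested genes the late difference of *wisp3* was the 68th from the highest, and since the family was selected on it, this place is a description.

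Among the 5 members only *cyr61* exceeded 1 TPM in the early window, and its UIC level went through a peak, a trough and a second rise. It was 21.1 TPM at 2 hpf, 32.2 TPM at 4 hpf and 45.1 TPM at 5 hpf. It then fell from 42 TPM at 5.5 hpf to 17.2 TPM at 7 hpf, 5.05 TPM at 8 hpf and 2.86 TPM at 9.5 hpf, so that the peak was 15.8 times the trough. By 12 hpf the level was back at 15.2 TPM, 5.33 times the trough. The decline between the early and late windows exceeded the spread between time points. The late window was lower than the early one by a log2 difference of -1.94 ± 0.44 (SE; 95% interval -2.86 to -1.03), with an adjusted p = 0.000403 in limma with Benjamini-Hochberg adjustment over all tested genes. In the same comparison 78.0% of all tested genes were called, so a change with time was the common state of genes in this period and 1 of 1 members tested does not stand out.

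MO embryos followed the same *cyr61* course with a lower level from 6.5 hpf on in all but 1 library pair. The early MO values ran from 23.1 to 47.1 TPM with a median of 33.8 TPM, against 21.1 to 45.1 TPM with a median of 32.2 TPM in UIC, and overlapped almost completely. At 7 hpf MO stood at 9.47 TPM against 17.2 TPM in UIC, at 7.5 hpf at 5.34 TPM against 8.57 TPM, and at 9 hpf at 1.89 TPM against 3.58 TPM. The trough of the MO embryos was at 9 hpf and that of UIC at 9.5 hpf, where MO was the higher library with 3.18 TPM against 2.86 TPM. At 11.5 hpf the values were 9.79 TPM and 14.4 TPM, and at 12 hpf 14.6 TPM and 15.2 TPM. The ratio of MO to UIC was lowest at 9 hpf, at 0.528, and stood at 0.549 at 7 hpf and 0.955 at 12 hpf.

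None of the *cyr61* differences between conditions passed the test. The early difference was 0.05 ± 0.09 (SE; 95% interval -0.14 to 0.24), with an adjusted p = 0.868 in limma. The middle one was -0.31 ± 0.09 (-0.50 to -0.12), with p = 0.00313 before adjustment and an adjusted p = 0.136 in limma. The late one was -0.26 ± 0.09 (-0.45 to -0.07), with p = 0.0102 and an adjusted p = 0.0764 in limma. In each of the later windows MO was lower at 6 of 7 time points, and the intervals lie below 0 although neither difference passes adjustment over all tested genes. In these windows 6.56%, 0.187% and 9.67% of all tested genes were called, and of the 1 member tested (*cyr61*) 0 were. Without 9.5 hpf, the 1 late pair in which MO was higher, the late difference was -0.32 and the adjusted p = 0.0472 in limma. This was the only 1 of 21 settings leaving out a time point that passed. It removes the contrary pair, so it adds no support for a lower late level. Without 9 hpf, the least alike pair, the late difference was -0.19, and its adjusted p was higher than with all pairs. The late difference minus the early one was -0.31 ± 0.13 (-0.58 to -0.04), with p = 0.0275 and an adjusted p = 0.215 in limma, in a comparison that called 3.03% of all tested genes.

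A second test followed the study's methods and compared Gaussian process (GP) fits over the whole time course. Its likelihood ratio (LR) is the log-likelihood of separate fits to UIC and MO less that of 1 joint fit. An LR over 0 counted as a call, and 7.20% of all tested genes had one. *cyr61* had an LR of -9.35, so 1 curve for both conditions had the higher likelihood. It was not called under any of 28 alternative settings, where each time point was left out in turn or the filter, scaling, threshold, centring or priors were changed. A higher threshold or another filter could not have made *cyr61* a call, so those settings add no support.

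**Figure D2:**
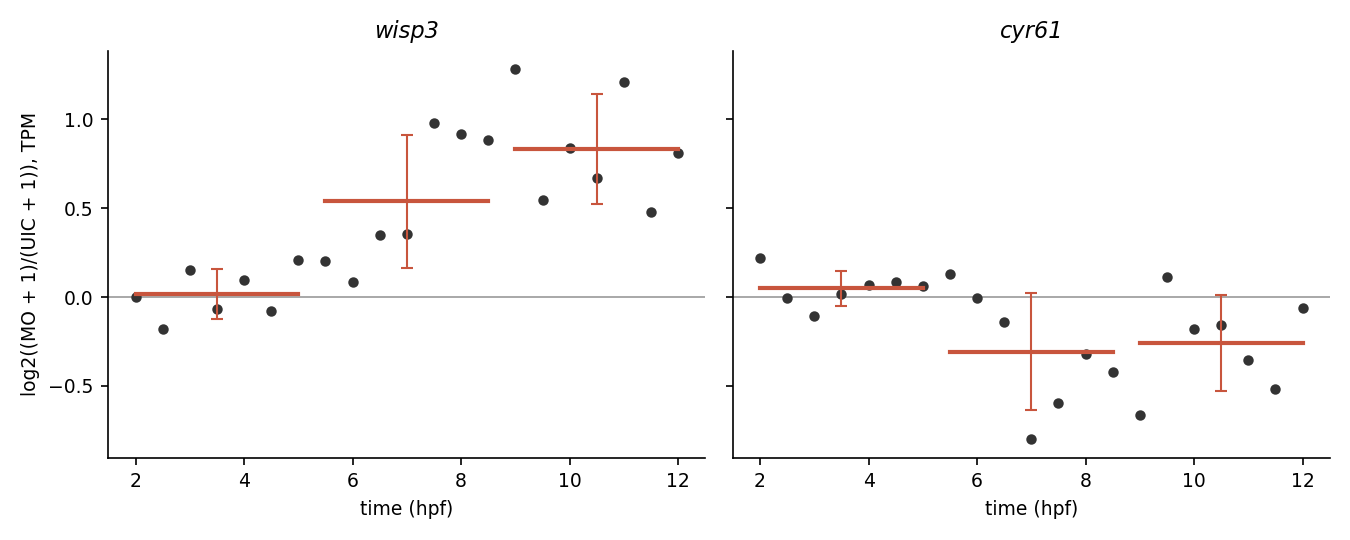
Difference between MO and UIC libraries of the same time point, log2((MO + 1)/(UIC + 1)) in TPM, against time in hpf for *wisp3* and *cyr61*. Points are single pairs, and red lines with bars give the mean and SD of the 7 pairs of a window. The *wisp3* means are 0.02, 0.54 and 0.83, and those of *cyr61* 0.05, -0.31 and -0.26.

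The remaining 3 members stayed under 1 TPM in both conditions, and none had a run over 0.4 TPM. *nov*, which encodes the CCN protein known for restraining proliferation in several mammalian cell types, was the highest of them. It ranged from 0 to 0.79 TPM in UIC, with a median of 0.24 TPM, and from 0 to 0.78 TPM in MO, with a median of 0.29 TPM. It exceeded 0.4 TPM in 6 UIC and 3 MO libraries, all at or before 7 hpf. The *nov* window means in UIC were 0.377 ± 0.20 TPM, 0.316 ± 0.15 TPM and 0.126 ± 0.12 TPM (SD, n = 7 time points), and in MO 0.347 ± 0.09, 0.341 ± 0.28 and 0.131 ± 0.13 TPM. The conditions overlapped in every window. When all 26097 genes with any value above 0 were tested, its late UIC mean was lower than the early one. The log2 difference was -0.29 ± 0.09 (SE, adjusted p = 0.0107 in limma). The share called among all 26097 genes is not given, so this call is not set against it. Among the 15011 genes that passed the filter, which do not include *nov*, 78.0% were called in this comparison. In the same unfiltered test *wisp1* (adjusted p = 0.419 in limma) and *ctgf* were not called. The *nov* means also lie under the 0.4 TPM minimum, where levels are uncertain without read numbers. Its 3 differences between MO and UIC lay between -0.02 and 0.01, with an adjusted p = 1.00 in limma for each.

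*wisp1* and *ctgf* were lower still. *wisp1* was at most 0.12 TPM in UIC and 0.09 TPM in MO, and was listed at 0 in 9 UIC and 11 MO libraries. *ctgf* was listed at 0 in 20 of 21 libraries of each condition. Its 2 values above 0 were 0.07 TPM in UIC at 6.5 hpf and 0.10 TPM in MO at 12 hpf. A value of this size cannot be told from 0 without read numbers, so no fold is given for these genes.

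Symbols limit what the *ctgf* row stands for. RefSeq lists *ctgf* as an older name of both *ccn2* and *ccn5*, and the table holds a further row, *ctgfl*, that no member name matches. *ctgfl* was expressed at every time point, with an early mean of 4.96 ± 0.32 TPM (SD, n = 7 time points) in UIC and 4.83 ± 0.36 TPM in MO. Its late means were 2.65 ± 0.98 TPM and 2.46 ± 1.01 TPM, and its late difference was -0.09 ± 0.24. The row *wisp2*, the name of CCN5 in mammals, was listed at 0 in all 42 libraries.

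**Figure D3:**
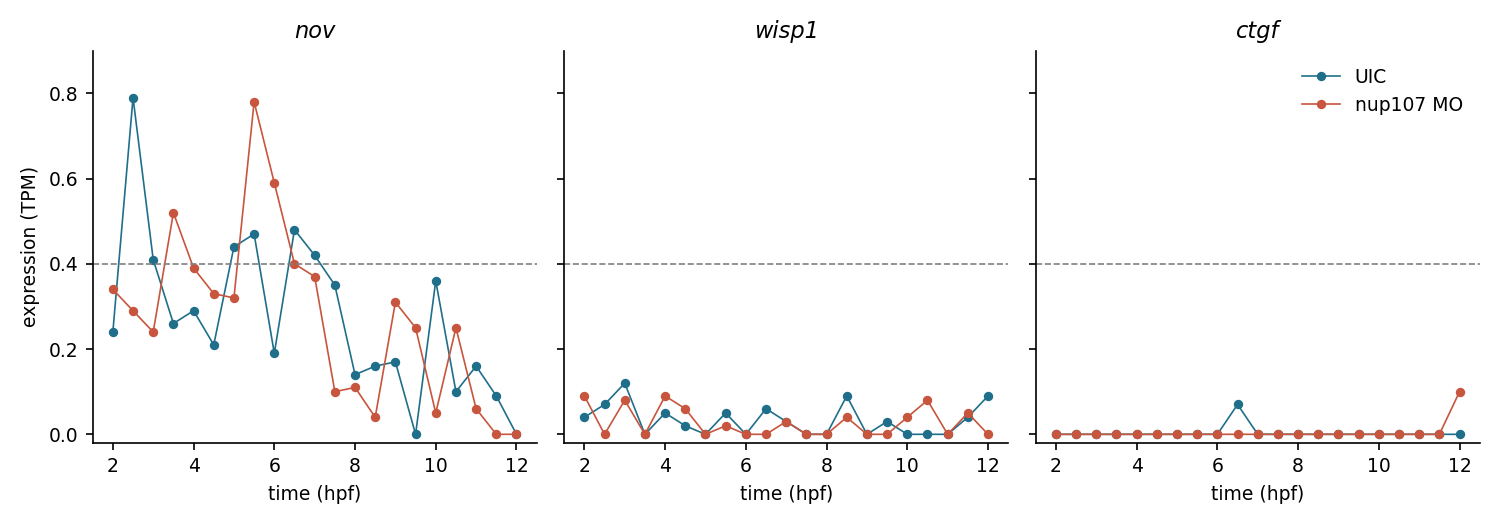
Expression of *nov*, *wisp1* and *ctgf* in TPM against time in hpf in UIC (blue) and *nup107* MO (red), 1 point per library, with the 0.4 TPM minimum of the filter as a dashed line. *nov* crosses the minimum in 6 UIC and 3 MO libraries, *wisp1* stays at or below 0.12 TPM and *ctgf* at or below 0.10 TPM.

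TPM are per transcript length, so the levels of the members can be ordered. At 2 to 5 hpf the order of the UIC means was *cyr61* (30.8 ± 8.32 TPM; SD, n = 7 time points), *nov* (0.377 TPM), *wisp3* (0.069 ± 0.067 TPM), *wisp1* (0.043 ± 0.043 TPM) and *ctgf* (0 in all 7). *wisp3* and *wisp1* did not differ beyond their spread. At 9 to 12 hpf it was *wisp3* (20.9 TPM), *cyr61* (8.20 ± 5.02 TPM), *nov* (0.126 TPM), *wisp1* (0.023 ± 0.034 TPM) and *ctgf* (0 in all 7), and *nov* and *wisp1* overlapped. In MO the late order of the first 4 was the same, with 37.2 TPM for *wisp3*, 6.71 ± 4.36 TPM for *cyr61*, 0.131 TPM for *nov* and 0.024 ± 0.033 TPM for *wisp1*, and *ctgf* was above 0 in 1 library.

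The family thus changed its leading member over the time course. The sum of the 5 members averaged 31.3 ± 8.26 TPM (SD, n = 7 time points) at 2 to 5 hpf in UIC, and *cyr61* made up 95.7% to 99.1% of it. The row *ctgfl*, at 3.76 TPM in UIC and 5.09 TPM in MO at 8 hpf, is not part of this sum or of the shares. In both conditions the sum was lowest between the fall of *cyr61* and the rise of *wisp3*, at 10.2 TPM at 8 hpf in UIC and 13.5 TPM at 7.5 hpf in MO. *wisp3* and *cyr61* were equal at 5.05 TPM at 8 hpf in UIC, and *wisp3* was the higher of the pair from 8.5 hpf on. In MO the change of order came earlier, at 7.5 hpf, when *wisp3* stood at 8.08 TPM and *cyr61* at 5.34 TPM. At 9 to 12 hpf the sum averaged 29.3 ± 11.6 TPM in UIC and 44.1 ± 15.2 TPM in MO. *wisp3* made up 66.1% of it in UIC and 78.4% in MO at 12 hpf. The order and the shares rest on *wisp3* and are a description, as for that gene itself.

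**Figure D4:**
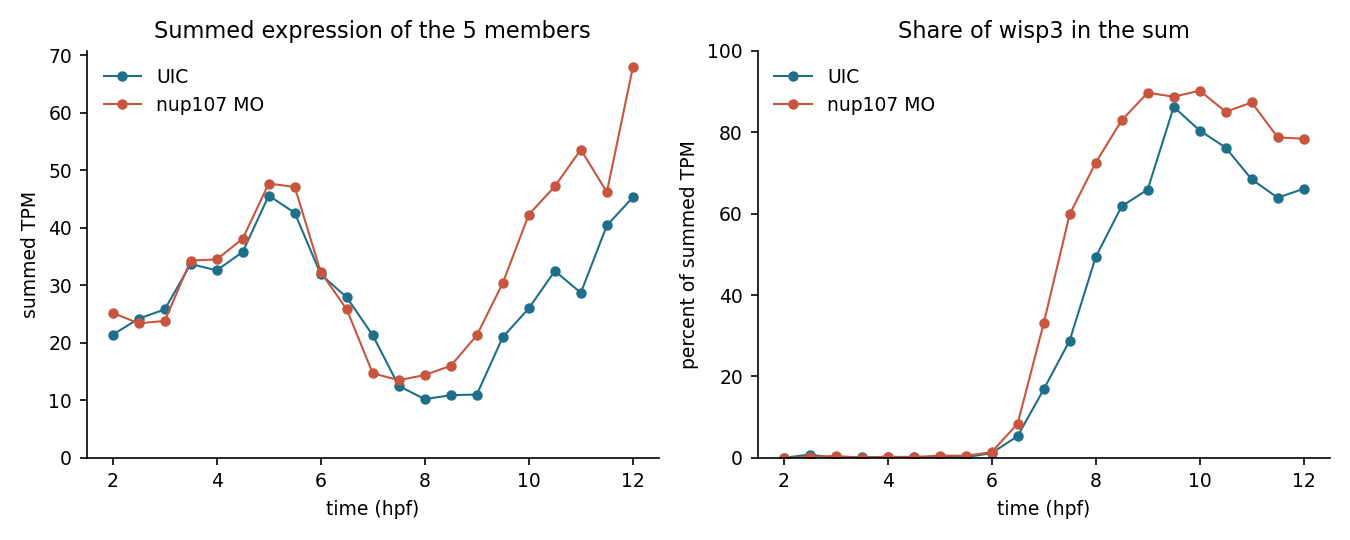
Left, summed TPM of the 5 members against time in hpf. Right, the percentage of that sum contributed by *wisp3*, each with 1 point per library in UIC (blue) and *nup107* MO (red). The lowest sums are 10.2 TPM at 8 hpf in UIC and 13.5 TPM at 7.5 hpf in MO, and the share of *wisp3* is higher in MO at each time point from 5 hpf on.

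Genes whose course was most like that of a member were found by Pearson's r of log2(TPM + 1) over the 42 libraries, which share the time course, so that r is high for any pair of genes with a like temporal pattern. For *wisp3* they were *wnt5b* (r = 0.99), which encodes a ligand of non-canonical Wnt signalling, *alcam* (0.99), a cell adhesion molecule of the immunoglobulin superfamily, and *top2b* (0.99), a DNA topoisomerase. *wnt5b* averaged 21.8 TPM in UIC and 25.3 TPM in MO at 9 to 12 hpf, *alcam* 65.2 and 74.1 TPM, and *top2b* 39.6 and 46.1 TPM. Their late differences were 0.21 ± 0.18, 0.28 ± 0.26 and 0.29 ± 0.40 (SD, n = 7 time points), each below the 0.83 of *wisp3*. For *cyr61* the 3 most alike included *ttc30a* (0.97), an intraflagellar transport gene, and *lmo4.1* (0.96), which encodes a LIM-only protein.

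The 21 paired differences of *wisp3* are the values the family was selected on, and likeness to them is a description of the highest r among many genes. By these differences the genes most like *wisp3* among those averaging at least 5 TPM late were *cdk1* (r = 0.84), the mitotic kinase, *snx22* (0.80), a sorting nexin, and *nup107* (0.79), the targeted gene. *cdk1* averaged 82.6 TPM in UIC and 101 TPM in MO at 9 to 12 hpf, a difference of 0.29 ± 0.11 (SD, n = 7 time points). *snx22* averaged 9.00 and 11.0 TPM late, and under 0.1 TPM early, as *wisp3* did. The early, middle and late differences of *nup107* were 0.02 ± 0.07, 0.42 ± 0.40 and 1.22 ± 0.16. *nup107* is a maternal mRNA that declines over this time, in contrast to *wisp3*.

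Neighbours in the genome were read from the order of RefSeq protein-coding genes (UCB_Xtro_10.0), which is a later assembly than the one behind the table, so only names are given. *wisp3* lies between *tube1*, a tubulin gene, and *fyn*, a Src family kinase gene. *tube1* averaged 4.82 ± 1.34 TPM (SD, n = 7 time points) in UIC and 5.10 ± 1.70 TPM in MO at 9 to 12 hpf, and *fyn* 4.72 ± 2.78 TPM and 5.91 ± 3.09 TPM. Their late differences were 0.05 ± 0.12 and 0.32 ± 0.22. *fyn*, like *wisp3*, was near 0 at 2 to 5 hpf, at 0.019 TPM in UIC and 0.076 TPM in MO. *cyr61* lies between *znhit6* and *ddah1*, whose late differences were -0.09 ± 0.14 and -0.06 ± 0.17.

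Genes of the pathways around the family were then counted from 7 lists, and 5.22% of all tested genes were called as increased in MO and 1.98% as decreased by the GP test. Of the Hippo pathway, which restrains Yap and Taz, 15 of 18 listed genes were tested and 0 were called by the GP test. By limma, 2 were higher at 2 to 5 hpf (*lats1* and *nf2*) and 2 lower at 9 to 12 hpf (*lats1* and *mob1b*), with 0 at 5.5 to 8.5 hpf. Before adjustment 4, 1 and 4 of the 15 had p under 0.05 in limma in the early, middle and late windows. Over all tested genes, limma called 5.88% as higher early, 5.02% as higher late and 4.65% as lower late, and 21.6%, 15.1% and 24.5% had p under 0.05 before adjustment in the early, middle and late windows. The call of *nf2* was lost in 14 of 28 alternatives, 11 of them single time points (adjusted p = 0.344 in limma after median-ratio scaling), and that of *mob1b* in 12 of 28, 8 of them single time points (adjusted p = 0.235 in limma after ERCC scaling). Without pairing of libraries by time point, no limma call between MO and UIC that is given here for a list gene passed. The unpaired model has no term for time, so change over time within a window counts as spread. The median late difference of the 15 was -0.01, against 0.02 over all tested genes.

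*lats1*, the kinase that phosphorylates Yap, was followed as 1 of 6 Hippo genes named whatever their values. It averaged 98.2 ± 15.4 TPM in UIC and 109 ± 14.5 TPM in MO early (SD, n = 7 time points), higher in MO at 7 of 7 time points. Late it averaged 19.1 ± 10.7 TPM and 16.8 ± 8.28 TPM, lower in MO at 7 of 7. The differences were 0.15 ± 0.05 (adjusted p = 0.0238 in limma) and -0.14 ± 0.10 (adjusted p = 0.0234 in limma). The first did not pass after median-ratio scaling (0.10, adjusted p = 0.157 in limma) and the second did not after ERCC scaling (-0.07, adjusted p = 0.460 in limma) or without 9 hpf (-0.12, adjusted p = 0.0761 in limma). The early call was also lost without 2.5, 3 or 3.5 hpf (adjusted p up to 0.0740 in limma), and the late one without 9.5, 10.5 or 11 hpf (adjusted p up to 0.0722 in limma).

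The effectors themselves were expressed in both conditions. *yap1* averaged 36.1 ± 10.1 TPM in UIC and 36.5 ± 5.18 TPM in MO at 9 to 12 hpf (SD, n = 7 time points), a difference of 0.04 ± 0.37 with an adjusted p = 0.866 in limma. Its partner *wwtr1*, which encodes Taz, averaged 9.91 ± 4.47 and 10.8 ± 4.11 TPM late (0.14 ± 0.27, adjusted p = 0.380 in limma). *tead4*, a DNA-binding partner of Yap, averaged 2.48 ± 0.80 TPM early and 69.1 ± 26.6 TPM late in UIC, and 77.0 ± 25.9 TPM late in MO (0.18 ± 0.21, adjusted p = 0.106 in limma). *tead1* averaged 2.31 ± 0.39 TPM late in UIC and 2.77 ± 0.73 TPM in MO (0.17 ± 0.37, adjusted p = 0.489 in limma). The second Lats kinase gene, *lats2*, averaged 10.2 ± 2.66 and 9.99 ± 3.10 TPM late (-0.04 ± 0.15, adjusted p = 0.724 in limma). The symbols *tead2* and *tead3* had no matching row.

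Of 20 genes of a human YAP signature outside the CCN family, 15 were tested. The GP test called 1 as increased and 0 as decreased, against 5.22% and 1.98% of all tested genes. By limma 1 was higher early, 1 higher late and 1 lower late, against 5.88%, 5.02% and 4.65% of all tested genes. Before adjustment 4, 4 and 7 of the 15 had p under 0.05 in limma in the 3 windows, in either direction. The shares of all tested genes were 21.6%, 15.1% and 24.5%. The GP call was *ccdc80*, which encodes a secreted matrix protein, with an LR of 12.7. Its early mean was 14.3 ± 10.1 TPM in UIC and 32.5 ± 7.59 TPM in MO, and its late mean 4.46 ± 1.68 TPM and 12.8 ± 8.61 TPM (SD, n = 7 time points). MO was higher at 7 of 7 early time points and 6 of 7 late ones. Its difference was 1.28 ± 0.74 early (adjusted p = 0.0461 in limma) and 1.16 ± 1.16 late (adjusted p = 0.0562 in limma; 0.85 ± 0.88 without 9 hpf). The early limma call was lost in 18 of 28 alternatives, 14 of them single time points (adjusted p = 0.136 in limma without 3 hpf). The GP call held in all 28, among them the filter settings, which cannot change it. Unlike *wisp3* it was higher in MO throughout the early window, although the first pair was close (39.3 TPM in MO beside 36.2 TPM for UIC at 2 hpf). UIC embryos then dropped to 14.7 TPM by 2.5 hpf and 6.5 TPM by 4 hpf, while MO embryos still had 36.7 and 37.2 TPM. Neighbouring MO libraries also varied widely, as from 36.2 TPM at 4.5 hpf to 18.8 TPM at 5 hpf. By limma at 9 to 12 hpf, *nt5e*, an ecto-nucleotidase gene, was higher in MO (0.30 ± 0.18, adjusted p = 0.000328). *nt5e* was near 0 in the early and middle windows and varied less there (SD 0.03 and 0.08), which lowers its pooled spread. In the late window *f3*, which encodes tissue factor, was lower by limma (-0.36 ± 0.16, adjusted p = 0.0151, and 0.0731 with a pseudocount of 5 TPM). The median late difference of the 15 genes was 0.06.

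CCN proteins signal through integrins and LRP co-receptors, and 8 of 12 such receptor genes were tested. The GP test called 1 of the 8, *itgav*, the integrin alpha v gene, as increased, with an LR of 1.05. It averaged 12.8 ± 1.27 TPM in UIC and 14.2 ± 1.60 TPM in MO early (SD, n = 7 time points), higher in MO at 7 of 7 time points, and 9.63 ± 1.47 and 10.5 ± 1.74 TPM late. Without 9 hpf the LR was -2.72 and the gene was not called; it was also not called without 4 hpf (-0.34) or 8 hpf (-0.13), and with log priors added (-5.20). By limma 0 of the 8 were called in any window, and 1, 0 and 1 had p under 0.05 before adjustment in the early, middle and late windows, against 21.6%, 15.1% and 24.5% of all tested genes. *itgb1*, the beta subunit shared by many of these receptors, averaged 153 ± 9.93 TPM in UIC and 162 ± 12.7 TPM in MO late, and the heparan sulfate proteoglycan gene *sdc4* 215 and 211 TPM, a difference of -0.02 ± 0.09. Both were named here after their values were seen.

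CCN proteins share a module with the IGF-binding proteins, and of 16 genes of the Igf system and its binding proteins 7 were tested. The GP test called 1 as increased, *igf2*, which encodes an insulin-like growth factor, with an LR of 1.82 that became -4.49 with log priors added. The LR was 0.01 without 10 hpf, 17.1 without 11.5 hpf and 13.8 without 12 hpf. Like *wisp3* it was near 0 early and rose late, from 0.47 TPM at 9 hpf to 77.5 TPM at 12 hpf in UIC and from 2.41 TPM to 75.7 TPM in MO. MO was higher at 5 of 7 late time points, as at 11 hpf with 63.4 TPM against 27.0 TPM, but not at 11.5 hpf (35.5 against 39.2 TPM) or 12 hpf. Its late difference was 0.81 ± 0.70 (SD, n = 7 time points, adjusted p = 0.00148 in limma) and 0.74 ± 0.74 without 9 hpf. The early and middle differences of *igf2* varied far less (SD 0.02 and 0.14) and enter the pooled spread. This p-value therefore does not rest on the late spread alone. While the *igf2* values of the conditions met again at 12 hpf, those of *wisp3* stayed apart. Also by limma, *igfbp5*, a binding protein gene, was lower late (-0.29 ± 0.27, adjusted p = 0.0106, and 0.0990 after ERCC scaling) and *insr*, the insulin receptor gene, was higher early (0.20 ± 0.17, adjusted p = 0.0489), a call that was lost in 21 of 28 alternatives, 16 of them single time points. By limma 1 of the 7 was thus higher early, 1 higher late and 1 lower late, against 5.88%, 5.02% and 4.65% of all tested genes. The GP test called 5.22% of all tested genes as increased. Before adjustment 3, 1 and 3 of the 7 had p under 0.05 in limma in the 3 windows. The shares of all tested genes were 21.6%, 15.1% and 24.5%. The median late difference of the 7 genes was 0.07.

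The other 3 lists were counted in the same way. Serum response factor and its Mrtf cofactors drive *CYR61* and *CTGF* in mammalian cells. Of 5 symbols listed for them, 3 (*srf*, *mkl1* and *mkl2*) had a row and were tested. The symbols *mrtfa* and *mrtfb* are other names of *mkl1* and *mkl2*, so no further gene is missing. Of the 3 tested, 0 were called by either test. Before adjustment 2, 0 and 0 had p under 0.05 in limma in the 3 windows (21.6%, 15.1% and 24.5% of all tested genes). Of 14 Wnt genes 10 were tested, with 0 called by the GP test and 1 by limma, *wnt5b*, which was higher at 9 to 12 hpf (0.21 ± 0.18, adjusted p = 0.0292) and lost this call in 7 of 28 alternatives, 4 of them single time points. Before adjustment 0, 2 and 1 of these 10 had p under 0.05 in limma in the 3 windows. Of 14 Tgf-beta and Bmp genes 10 were tested, with 0 called by the GP test and 2 by limma at 9 to 12 hpf. In this window limma called 9.67% of all tested genes. *tgfbr1*, a type I receptor gene, was lower (-0.24 ± 0.13, adjusted p = 0.00108, and 0.161 after ERCC scaling) and *smad7*, which encodes an inhibitor of this signalling, was higher (0.16 ± 0.14, adjusted p = 0.0399), a call that was lost in 7 of 28 alternatives, 5 of them single time points. Before adjustment 1, 2 and 2 of the 10 Tgf-beta and Bmp genes had p under 0.05 in limma in the 3 windows.

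**Figure D5:**
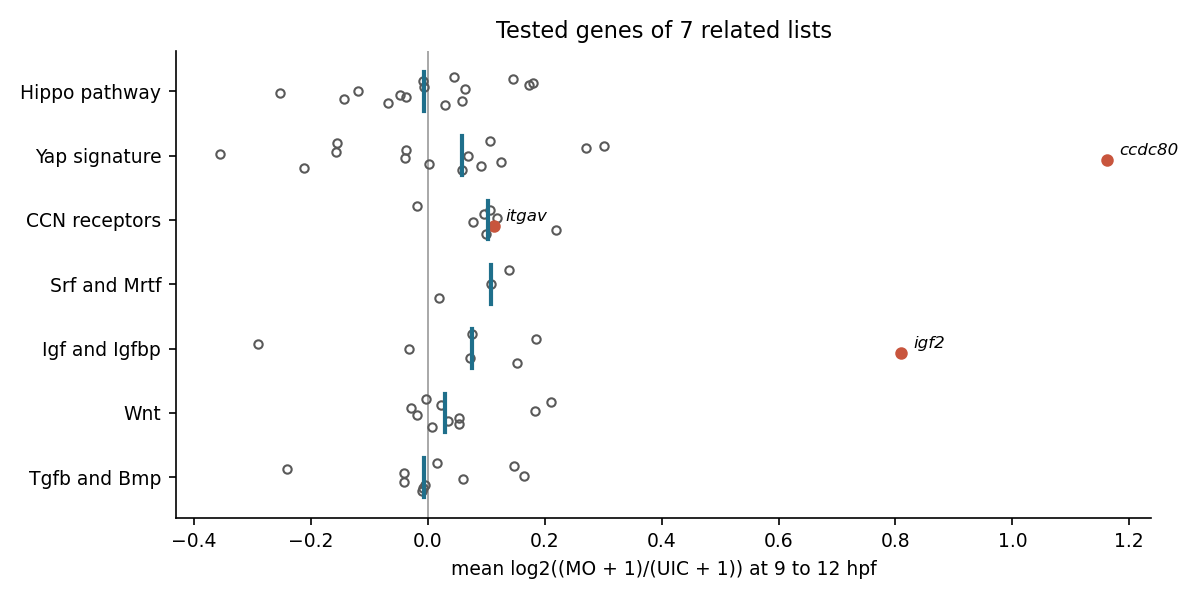
Mean log2((MO + 1)/(UIC + 1)) at 9 to 12 hpf (n = 7 time points) of each tested gene of 7 lists. Filled red points are genes called by the GP test (*ccdc80*, *itgav*, *igf2*), open points are genes not called, and blue bars are list medians, which lie between -0.01 and 0.11.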

How the data were processed

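Reads were mapped by the authors with STAR to Xt9.1 plus the ERCC sequences. They deposited gene-level TPM from RSEM, without the dinucleotide correction used in the study. The 2 deposited tables (polyA+ and ribozero) hold identical values, which were used once, as the 42 polyA+ libraries that the sample descriptions point to. Whether they are instead the values of the ribozero libraries was not tested. No separate values of the 42 ribozero libraries were analysed. TPM give no depth, so no counting error is stated.

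Genes needed 6 consecutive time points over 0.4 TPM in either condition. The GP test used the square-root transform (alpha 1, beta 1000), a Matern 5/2 kernel and normal priors on the log hyperparameters (means 3, 2 and 0, SDs 2, 4 and 4). limma 3.58.1 (R 4.3.3) tested log2(TPM + 1) with MO and UIC libraries of the same time paired (sibling embryos), and called at an adjusted p under 0.05. Simulated 2-fold changes were recovered for 199 of 200 genes by the GP test and for 190, 196 and 199 by limma in the 3 windows, among 15011 genes. They were set at every time point, in genes above a set level and with independent noise. Recovery of smaller changes, or of changes in single windows, was not tested. The GP test also called 163 of 14811 unchanged genes, and limma 7, 9 and 17 in the 3 windows. Lists and named genes (up to 4 GP calls per list by late difference, Hippo effectors, the 3 genes most like a member) and the members were chosen with earlier results of these data known. Alternatives covered filter, scaling, pseudocount, priors, threshold, centring, pairing and single time points. The result of 1 gene among those most like a member is not reported here.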

Additional observations from a re-analysis of the deposited data

Results flagged for a closer look

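For 5 of the genes named, the difference between MO and UIC itself changed between 2 to 5 hpf and 9 to 12 hpf in limma's test over all tested genes. This test called 3.03% of all tested genes. Others of the genes named did not pass, among them *cyr61*, *ccdc80* and *yap1* (adjusted p = 0.215, 0.946 and 0.960 in limma). *nf2* and *nt5e* were named for a limma call in a window and *igf2* for its GP call in the same data, so the count is not a result about the genes named. The change was 1.198 for *nup107* (adjusted p = 0.000498), the targeted gene, with MO higher at 7 of 7 late time points. It was -0.30 for *lats1* (adjusted p = 0.00694), with MO higher at 7 of 7 early and 0 of 7 late time points, and did not pass after ERCC scaling (adjusted p = 0.127). It was -0.25 for *nf2* (adjusted p = 0.0159), with MO higher at 7 of 7 early and 1 of 7 late time points, and did not pass after ERCC (0.362) or median-ratio scaling (0.0785). It was 0.32 for *nt5e* (adjusted p = 0.0118), with MO higher at 6 of 7 late time points, and did not pass after ERCC scaling (0.0849) or with a pseudocount of 0.1 TPM (0.102). It was 0.80 for *igf2* (adjusted p = 0.0417), with MO higher at 5 of 7 late time points, and did not pass under both other pseudocounts (0.184 and 0.0530) or both scalings (0.0798 and 0.0503). This call was lost in 16 of 21 settings that left out 1 time point, as without 11 hpf (0.0820), 2.5 hpf (0.0794) or 9 hpf (0.0621). *igf2* and *nt5e* were near 0 TPM early in both conditions, which with a pseudocount of 1 TPM holds the early difference near 0 (0.012 and -0.018). For these genes the change therefore mostly restates the late difference (0.81 and 0.30). None of the 5 passed without pairing by time point, in a model where change over time within a window counts as spread. Over all alternatives the adjusted p ranged from 4.61e-05 to 0.360 for *nup107*, from 0.00409 to 1.00 for *lats1*, from 0.00332 to 1.00 for *nf2*, from 0.00276 to 1.00 for *nt5e* and from 0.00976 to 1.00 for *igf2*.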

How the results depend on the processing

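The *wisp3* differences, given as a description, moved by less than 1 SD under each of 28 alternatives per window. A change of filter, of pairing or of time points outside a window cannot move its mean, so these settings check nothing for *wisp3*. Leaving out 1 of the 7 time points inside a window cannot move its mean by as much as 1 SD. Only the changes of pseudocount and scaling could have moved it further. The early *cyr61* difference turned to -0.004 after median-ratio scaling. Without pairing by time point (no replicate block), limma called 0.0133%, 0.00666% and 0.0799% of genes in the early, middle and late windows against 6.56%, 0.187% and 9.67%, and 0% for late minus early against 3.03% (204 genes at p under 0.05 before adjustment). In the unpaired model, change over time within a window counts as spread. The GP test called 3.81% at an LR over 3, 22.8% without a filter, 17.3% with the gene mean subtracted and 2.36% with log priors added, against 7.20%. Without a filter limma called 3.30% early and 5.58% late. Median-ratio scaling gave 3.63% early and 0.120% in the middle window. ERCC scaling gave 0% in the middle window (1674 genes at p under 0.05 before adjustment), 4.39% late and 0.253% for late minus early. A pseudocount of 5 TPM gave 0.560% in the middle window. The share of GP calls that were increases was 72.5%, and 86.9% after ERCC and 61.6% after median-ratio scaling. For limma calls it went from 89.6% to 53.2% (median-ratio) early, from 51.9% to 88.2% (ERCC) late, from 32.1% to 60.5% (ERCC) and 58.8% (median-ratio) for late minus early, and from 38.5% to 55.0% (median-ratio) between UIC windows. The median log2 difference of all genes between UIC windows was -0.26, and 0.12 after median-ratio scaling. Leaving out single time points gave 6.60% to 7.83% GP calls, and limma calls of 2.17% to 9.07% early, 0.0333% to 2.14% middle, 5.78% to 10.3% late and 1.43% to 4.19% late minus early. Early calls were 2.27%, 2.17%, 2.72% and 3.92% without 2.5, 3, 3.5 and 4.5 hpf. Middle calls were 0.120%, 0.286%, 0.0466%, 0.0333%, 0.0600%, 0.107% and 2.14% without 4.5, 6.5, 7, 7.5, 8, 8.5 and 9 hpf. Late calls were 5.78% without 10.5 hpf, and late minus early calls 1.87%, 1.43% and 1.77% without 2, 2.5 and 3 hpf. The cause of these changes was not tested.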
